A study of Mus musculus with 6 samples.

Results

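The granzymes and cytotoxic granule genes examined here were Gzma, Gzmb and Gzmc (granzymes A, B and C), Prf1 (perforin), Srgn (serglycin), Ctsw (cathepsin W) and Nkg7 (natural killer cell granule protein 7). They were selected by name, and all 7 were found, each as 1 entry, among the 53278 genes of the deposited table. The cells were group 2 innate lymphoid cells (ILC2s) sorted from the visceral adipose tissue of C57BL/6 mice, aged 8 weeks, as lineage-negative CD45+ ST2+ CD117+ cells. The mice had received recombinant IL-33 intraperitoneally, in 3 injections of 1 µg, before the cells were taken. Both groups were then kept for 48 hours in IL-2 and IL-7, each at 10 ng/mL, with DTA-1 at 5 µg/mL in one group and its isotype control in the other. DTA-1 is an agonist antibody against GITR, a costimulatory receptor of the TNF receptor superfamily. Each group had 3 libraries, made from 10 ng of RNA each, and IL-33, IL-2 and IL-7 were common to all 6. A duration of 24 hours is also given for this culture in the study's text. The labels do not say whether libraries came from separate mice or cultures, so p-values measure only the spread between these 6 samples.

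Cytotoxic granules are secretory lysosomes that natural killer (NK) cells and CD8 T cells release onto a target cell. Perforin opens pores in the target membrane, granzymes are serine proteases that enter through them, and serglycin is the proteoglycan whose negatively charged side chains hold these proteins in the granule core. ILC2s are known for secreting IL-5 and IL-13 rather than for killing, and granzyme B is also made outside killer cells, by mast cells and activated lymphocytes among others.

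The libraries held 30569351 to 35131329 counts, at which a count of 0 allows up to 3 counts, or 0.0854 to 0.0981 CPM, the counts scaled to a common library total. This limit covers counting error only. Normalized counts are CPM after TMM scaling, and 14361 genes with enough counts were tested with edgeR (quasi-likelihood, p-values adjusted by Benjamini-Hochberg). A gene was called when its adjusted p was under 0.05 and its change at least 1.5-fold. The library labelled DTA-1 replicate 1 stood apart from its group. As a distance, the chi-square between the counts of both libraries was taken per degree of freedom. To the isotype control group this library's distance was 10.1 to 11.9, and to DTA-1 replicates 2 and 3 it was 29.0 to 30.5, while the isotype control libraries lay 12.0 to 18.4 from each other. The fold changes of the tested granule genes, and of pathway genes called in any fit, are therefore also given without it.

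The markers of the sorted cells were present in every library. Il1rl1 (ST2) had 1022 to 1286 normalized counts, Gata3 1525 to 1716, Klrg1 544 to 612, Il5 5063 to 9695 and Kit (CD117) 75.8 to 129. All 12 ILC2 markers listed, which also held Ptprc, Il7r, Rora, Icos, Thy1, Il13 and Areg, passed the filter on low counts. Of 9 markers of NK cells and ILC1s, 6 were at 0 counts in all 6 libraries (Ncr1, Klrb1c, Klrk1, Klrd1, Klre1 and Klra8), and the summed level of the list, 4.36 to 9.04 normalized counts, was mostly Itga2. Cd8a was at 0 in all 6 libraries, and Cd8b1 had a mean of 0.0284 normalized counts under isotype control and 0.0314 under DTA-1. The 7 T cell markers summed to 40.3 to 53.6 normalized counts over the 6 libraries, mostly Cd3g with Cd3e next, and the 6 macrophage markers to 1.22 to 4.28, with C1qb at 0 throughout. The 6 fibroblast markers summed to 2.20 to 8.39 under isotype control and 0 to 3.98 under DTA-1. Among them, Pdgfra had 68, 14 and 25 counts against 0 in every DTA-1 library, and Col1a1 had 60, 56 and 68 against 0, 9 and 3. With all 6 libraries edgeR called neither (adjusted p = 0.452 and 0.491). Without DTA-1 replicate 1 both were called lower (adjusted p = 0.0481 and 0.0325). For the other fibroblast markers the groups overlapped. The part of such cells in the granule gene levels was not tested.

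Gzmb and Gzmc are neighbours in the granule protease cluster of chromosome 14, and their promoters are shown because the genes differed widely in level although they lie 24.2 kb apart. The promoter at the first RefSeq start of Srgn is shown beside them because Srgn had by far the highest level of the 7. Each is the 250 bases before the RefSeq start (GRCm38.p6), written 5′ to 3′ on the gene's strand, which is the minus strand for all 3. The spans are chr14:56262335-56262584 for Gzmb, chr14:56234658-56234907 for Gzmc and chr10:62527446-62527695 for Srgn. The RefSeq start of Gzmb lies 74 bases upstream of the GENCODE start. Capitals mark matches, on either strand, to short letter patterns of 7 transcription factor families, which are spelled out after the sequences.
Gzmb: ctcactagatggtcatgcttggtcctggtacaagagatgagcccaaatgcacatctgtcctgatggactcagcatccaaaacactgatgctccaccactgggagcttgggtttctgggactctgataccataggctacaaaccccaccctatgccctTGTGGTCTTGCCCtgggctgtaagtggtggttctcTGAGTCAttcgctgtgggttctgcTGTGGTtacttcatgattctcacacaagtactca
Gzmc: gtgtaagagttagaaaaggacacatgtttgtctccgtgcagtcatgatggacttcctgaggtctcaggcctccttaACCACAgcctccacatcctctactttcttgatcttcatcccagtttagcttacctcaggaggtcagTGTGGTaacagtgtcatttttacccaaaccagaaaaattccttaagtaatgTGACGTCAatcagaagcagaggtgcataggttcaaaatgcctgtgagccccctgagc
Srgn: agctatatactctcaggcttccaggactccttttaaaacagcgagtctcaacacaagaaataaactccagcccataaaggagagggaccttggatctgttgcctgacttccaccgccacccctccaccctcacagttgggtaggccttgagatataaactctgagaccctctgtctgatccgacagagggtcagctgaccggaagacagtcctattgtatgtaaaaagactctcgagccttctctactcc
RUNX letters were searched as TGTGGT. The Gzmb promoter held them beginning 93 and 34 bases before the start, the first of them overlapping an NF-κB match at 90. It also held AP-1 letters, searched as TGANTCA, at 58. The Gzmc promoter held RUNX letters at 174 and 108 but no AP-1 letters in this window. A half-site of the cAMP response element, searched as ACGTCA, was matched there once on each strand, at 57 and 55. These matches overlap as TGACGTCA, the whole palindromic element, whose own share of all promoters was not counted. None of the 7 motifs was found in the Srgn window shown.

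RefSeq promoters were found for 6 of the 7 genes, at 7 start sites, and Ctsw had no entry. RUNX letters occurred before 6 of these 7 starts, against 14% of all 32851 mouse promoters of the same length. They began 50 bases before the start of Gzma, 130 before Prf1, 83 before Nkg7 and 202 before the second start of Srgn. T-box letters, for the family of T-bet and Eomes, were searched as AGGTGT. They occurred before Gzma, Prf1 and Nkg7 and in 11.8% of all promoters. The other shares of all promoters were 6.75% for AP-1, 6.47% for the cAMP response element half-site, 7.02% for STAT, 45.8% for the general κB pattern of NF-κB and 9.99% for GATA. GATA letters, searched as AGATAA, were before none of the 7 starts. STAT letters, searched as TTCNNNGAA, were only before Nkg7. NF-κB matches, for which the pattern was GGG and CC with any 5 bases between, were before 4 starts, and half-site letters before Gzmc, Prf1 and the second start of Srgn. These matches describe letters and not bound sites.

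The level of the 7 genes spanned more than 3 orders of magnitude, and serglycin alone was abundant. Divided by exon length, Srgn had a mean of 609 normalized counts per kb over the 6 libraries, rank 49 of the 14094 tested genes with a length, and 99.7% of those genes were lower. Gzmb followed with 12.0 per kb, above 69.0% of tested genes, then Ctsw with 3.09 and Gzma with 2.08. Nkg7 with 0.461, Prf1 with 0.248 and Gzmc with 0.175 per kb lay below most tested genes, and 16.0%, 9.22% and 6.21% of these were lower than each in turn. The lowest Srgn library (582 per kb) stood above the highest Gzmb library (17.1), and the lowest Gzmb library (6.61) above the highest Ctsw library (3.42). In the order of Ctsw, Gzma, Nkg7, Prf1 and Gzmc, each gene's range over the libraries overlapped that of the next. Compared within the same library, Gzma was above Nkg7 in all 6 and Ctsw above Gzma in 5. Nkg7 was above Prf1 in 4 and Prf1 above Gzmc in 3. Some ranges farther apart in this order did not overlap. The lowest Ctsw library (2.70) stood above the highest of Nkg7 (1.17). The lowest Gzma library (1.07) stood above the highest of Prf1 (0.595) and Gzmc (0.415). The ranges of Nkg7, Prf1 and Gzmc all overlapped. With the longest coding transcript as length, Srgn had 774 and Ctsw 4.70 per kb, and the order was the same.

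**Figure D1:**
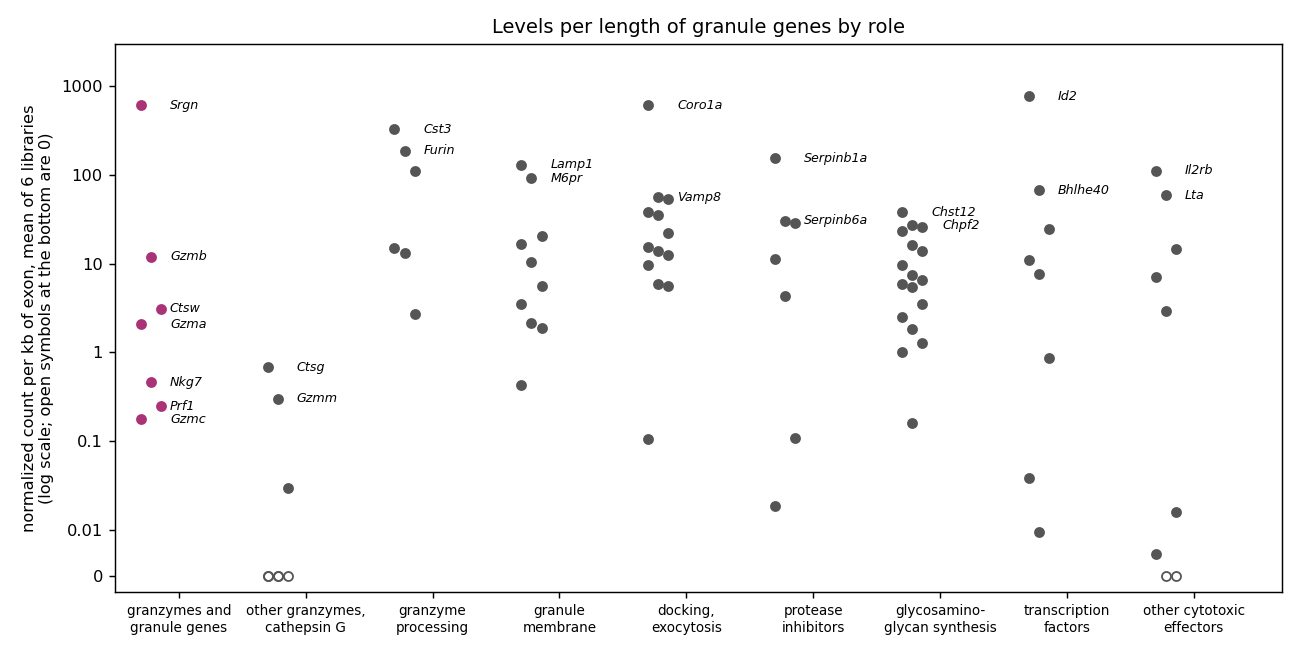
Level of each gene as normalized count per kb of exon, mean of the 6 libraries, on a log scale, for the 7 granzymes and granule genes (purple) and 8 lists of genes of the granule pathway (grey; open symbols at the bottom are 0, of which some overlap, and 1 gene without an exon length is left out). Serglycin at 609 per kb stands near Coro1a and Id2, Gzmb at 12.0 per kb among the docking genes and inhibitors, and perforin and Gzmc under 0.3 per kb.

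With DTA-1, none of the 7 genes differed from isotype control beyond the spread of the libraries. The groups overlapped for each of the 7, whereas they did not overlap for 11.3% of all tested genes, 5.26% higher and 6.03% lower with DTA-1. The filter on low counts kept 6 of the 7 and removed Gzmc. Of the 6 none was called, and in the whole table edgeR called 0 of 14361 genes (0%), while 337 genes (2.35%) had an unadjusted p under 0.05 with a 1.5-fold change. None of the 6 was among those 337. DESeq2's Wald test called 25 of 16435 genes (0.152%) and none of the 7. Without DTA-1 replicate 1, edgeR called 111 of 14911 genes (0.744%) and again none of the 7. The fitted log2 fold changes of the 6 were all above 0, as were those of 6901 of all 14361 tested genes. Their median was 0.22 against -0.01 over all tested genes. Those of Gzma, Prf1 and Ctsw turned below 0 in some of the alternative fits, and that of Gzmc was -1.16 with the filter lifted. A higher level per cell and a larger share of expressing cells cannot be told apart in these bulk libraries.

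Granzyme B, which cleaves caspases and other proteins of the target cell, was the most abundant granzyme (ENSMUSG00000015437.5, chr14:56258838-56262260 on the minus strand). Its normalized count was 9.5, 24.6 and 11.6 in replicates 1, 2 and 3 under isotype control, and 16.9, 18.8 and 22.3 in the same order under DTA-1. The 3 DTA-1 libraries lay above isotype control replicates 1 and 3 and below replicate 2, which was the highest of all 6. The means were 15.2 ± 8.18 and 19.4 ± 2.76 (SD, n = 3), with a difference of 0.35 on the log2 scale (SE 0.29, 95% confidence interval -0.30 to 0.99, edgeR adjusted p = 0.833). Without DTA-1 replicate 1 it was 0.44 (adjusted p = 0.623). Without isotype control replicate 2 it was 0.88, with a 95% confidence interval of 0.47 to 1.28 that lay above 0 (edgeR adjusted p = 0.676). The size of the difference therefore rested largely on that library. No setting tried gave Gzmb an adjusted p under 0.623.

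The isotype control libraries differed in Gzmb by far more than counting noise. They held 336, 862 and 408 counts, for which the chi-square per degree of freedom was 157, against 10.6 for the 522, 588 and 712 counts of the DTA-1 libraries. The coefficient of variation was 53.7% under isotype control and 14.3% under DTA-1, and this difference in spread was not tested. The biological coefficient of variation estimated by edgeR was 25.0% for Gzmb, while genes of the same abundance had 13.5%.

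Granzyme A, a tryptase-like granzyme, is encoded on another chromosome (ENSMUSG00000023132.8, chr13:113093825-113100981, minus strand). Its normalized count was 1.07, 1.80 and 3.17 under isotype control and 1.39, 2.08 and 3.01 under DTA-1. The lowest and the highest libraries were both isotype control. The means were 2.01 ± 1.07 and 2.16 ± 0.813 (SD, n = 3), with a log2 fold change of 0.10 (SE 0.44, 95% confidence interval -0.86 to 1.07, edgeR adjusted p = 0.972). Without DTA-1 replicate 1 it was 0.34 (adjusted p = 0.814). The counts behind these values were 38 to 112 per library. Gzmk, which lies 70.6 kb from Gzma and encodes another tryptase-like granzyme, had no count in any library.

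The highest library was not the same for Gzmb and Gzma. Isotype control replicate 2 was the highest for Gzmb but intermediate for Gzma, and isotype control replicate 3 was the highest for Gzma. Per length, Gzmb exceeded Gzma in all 6 libraries, by a ratio of 2.55 to 9.59.

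Granzyme C (ENSMUSG00000079186.3, chr14:56231441-56234656, minus strand) was the lowest of the 7, with at most 13 counts in a library. Its counts were 10, 13 and 0 in the isotype control libraries and 4, 0 and 5 in the DTA-1 libraries, or 0.283, 0.371 and 0 normalized counts against 0.129, 0 and 0.157. One library of each group had none. With the filter lifted, the log2 fold change was -1.16 (edgeR adjusted p = 0.816), and the groups overlapped. Gzmc shares exact stretches of at least 28 bases with transcripts of 7 other genes, the longest being 68 bases with Gzme, so these few reads cannot be assigned to it with certainty. Gzmb shares such a stretch only with Gzmc (49 bases).

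**Figure D2:**
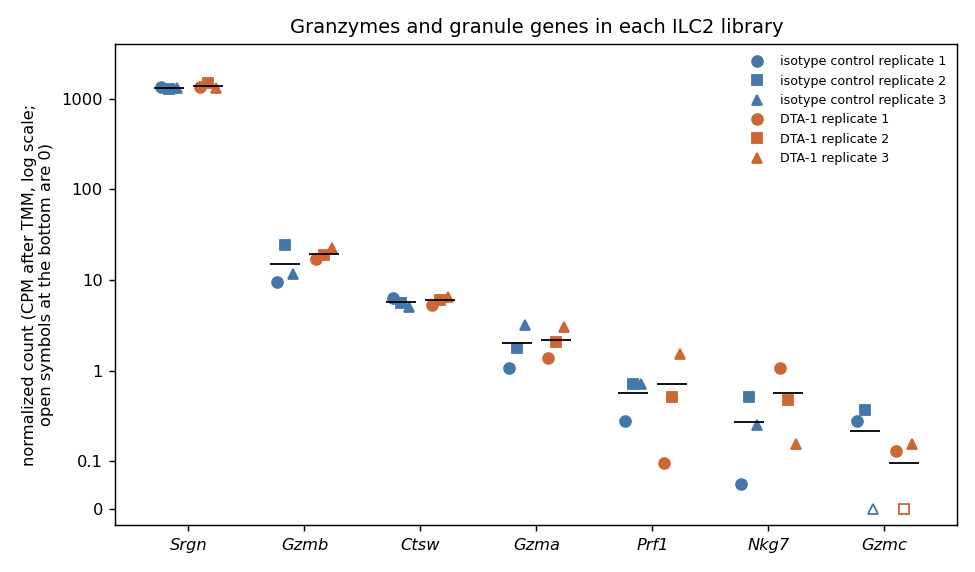
Normalized count (CPM after TMM, log scale) of the 7 genes in each isotype control (blue) and DTA-1 (orange) library; symbols mark replicates, bars are group means (n = 3) and open symbols at the bottom are 0. The groups overlap for every gene, and the relative spread within a group is smallest for Srgn, at 1279 to 1474. It does not simply widen as the level falls: under isotype control it is 53.7% for Gzmb and 11.1% for the lower Ctsw. Prf1, Nkg7 and Gzmc are all under 1.6.

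Perforin, the pore-forming protein on which granule killing depends, was close to absent (ENSMUSG00000037202.6, chr10:61297833-61304680, plus strand). The libraries held 10, 25 and 25 counts under isotype control and 3, 16 and 49 under DTA-1, which equal 0.283, 0.713 and 0.709 against 0.0970, 0.513 and 1.54 normalized counts. The lowest and highest libraries were both DTA-1. The means were 0.568 ± 0.247 and 0.716 ± 0.741 (SD, n = 3), and the log2 fold change of 0.33 had an SE of 0.79 and an interval from -1.41 to 2.08 (edgeR adjusted p = 0.952). It was 0.85 without DTA-1 replicate 1 (adjusted p = 0.639) and -0.89 without DTA-1 replicate 3, so its direction rested on single libraries. Per length, the Gzmb level was 26.1 to 313 times that of Prf1 in the same library, with a median of 61.3. Prf1 shares 28 or more bases with 35 other genes, the longest exact match being 36 bases.

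Serglycin (ENSMUSG00000020077.14, chr10:62493833-62527451, minus strand, 1189 kb from Prf1) had the smallest relative spread of the 7 in either group, 1.95% under isotype control and 6.46% under DTA-1. Its normalized count was 1329, 1279 and 1296 under isotype control and 1343, 1474 and 1304 under DTA-1. DTA-1 replicate 2 was the highest and the other 5 libraries lay within 1279 to 1343. The means were 1301 ± 25.4 and 1374 ± 88.7 (SD, n = 3), with a log2 fold change of 0.08 (SE 0.06, 95% confidence interval -0.06 to 0.22, edgeR adjusted p = 0.826). The interval lies inside the 1.5-fold limit in both directions, as it does without DTA-1 replicate 1 (0.09, interval -0.04 to 0.23, adjusted p = 0.546). Srgn shares 28 or more bases with transcripts of 993 other genes, the longest being 43 bases, and it is the only one of the 7 whose deposited counts were not whole numbers. Per length, its level was 34.0 to 91.5 times that of Gzmb and 0.103 to 0.184 times that of Il5.

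Cathepsin W, a cysteine protease known from NK cells and CD8 T cells (ENSMUSG00000024910.5, chr19:5465240-5468498, minus strand), was low and even. It had 6.36, 5.65 and 5.10 normalized counts under isotype control and 5.37, 6.09 and 6.46 under DTA-1. The ranges of the groups lay almost on top of each other. The means were 5.70 ± 0.630 and 5.97 ± 0.555 (SD, n = 3), with a log2 fold change of 0.07 (SE 0.20, 95% confidence interval -0.37 to 0.51, edgeR adjusted p = 0.961). Without DTA-1 replicate 1 it was 0.14 (adjusted p = 0.842). Chi-square per degree of freedom was 2.30 and 1.11 within the groups, the smallest of the 7 genes in each group and close to counting noise in DTA-1.

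Nkg7, a granule membrane protein needed for exocytosis in killer lymphocytes (ENSMUSG00000004612.9, chr7:43437073-43438249, plus strand), had the largest fitted fold change and the widest interval of the 6 tested genes. Its counts were 2, 18 and 9 under isotype control and 33, 15 and 5 under DTA-1, or 0.0565, 0.513 and 0.255 against 1.07, 0.480 and 0.157 normalized counts. Only DTA-1 replicate 1 stood above isotype control replicate 2. The log2 fold change was 1.04 (SE 0.84, 95% confidence interval -0.81 to 2.88, edgeR adjusted p = 0.824), and without that library it was 0.21 (adjusted p = 0.958).

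**Figure D3:**
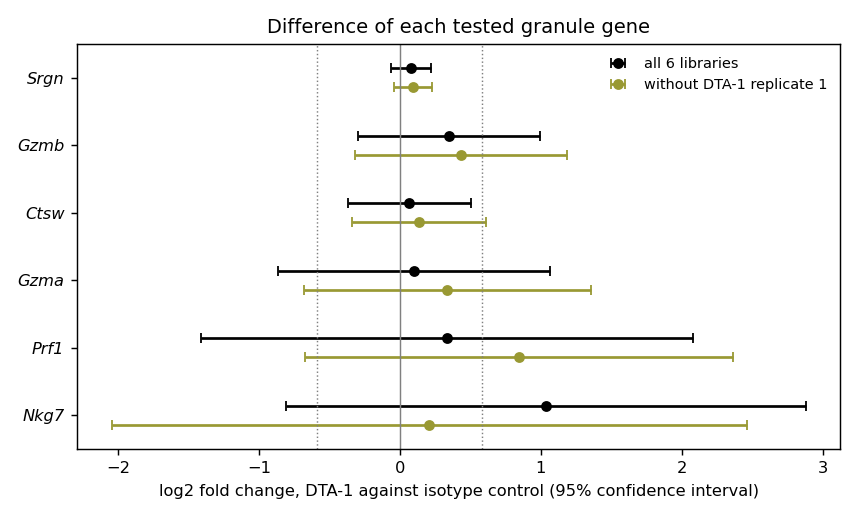
Log2 fold change with DTA-1 against isotype control and its 95% confidence interval (bars) for the 6 tested genes, with all 6 libraries (black) and without DTA-1 replicate 1 (olive); dotted lines mark a 1.5-fold change. Each interval holds 0; with all 6 libraries those of Srgn and Ctsw stay inside the 1.5-fold limits, and those of Prf1 and Nkg7 reach past 2 on the log2 scale.

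For the 4 genes with a mean of at least 50 counts, the gene whose log2 normalized counts were most alike over the 6 libraries was Nup160 for Gzmb (r = 0.996), Gramd1a for Gzma (r = 0.999), Utp23 for Srgn (r = 0.984) and Dld for Ctsw (r = 0.987). These are the highest of 14360 values each, over 6 libraries that share their depth and normalization. Between 19 and 41 genes exceeded 0.95 for each of the 4, so no single gene stands out by it.

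The granule protease cluster on chromosome 14 holds 15 protein-coding genes of the table from Cma1 to Gzmb, and Gzmb gave most of its counts. Its share of the cluster's counts was 65.5%, 78.5% and 64.7% under isotype control and 79.3%, 53.0% and 62.9% under DTA-1. Gzmd, Gzmf, Gzmg and Gzmn, which lie between Gzme and Gzmc, had no count in any library, and 9 of the 15 had fewer than 10 counts over the 6 libraries together. Only Cma1, Mcpt8, Ctsg and Gzmb passed the filter.

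Cma1 (mast cell chymase), at the far end of the cluster, was the only other gene with more than 1 normalized count on average in each group. It had 3.67, 4.85 and 4.85 normalized counts under isotype control and 3.69, 14.2 and 10.9 under DTA-1, so DTA-1 replicates 2 and 3 stood above the other 4 libraries. The log2 fold change was 1.10 (edgeR adjusted p = 0.632), and without DTA-1 replicate 1 it was 1.49 and was called (adjusted p = 0.00960). The 7 mast cell and basophil markers listed summed to 17.5, 21.7 and 16.5 normalized counts under isotype control and 16.1, 44.9 and 33.1 under DTA-1, and Cpa3 and Cma1 gave the most over the 6 libraries together, although Tpsb2 exceeded Cma1 in each isotype control library. Cpa3 had a log2 fold change of 1.03 (adjusted p = 0.627) and 1.33 without DTA-1 replicate 1 (adjusted p = 0.0391), and none of the 7 markers was at 0 in all libraries. The markers did not all go this way. Mcpt8 had -0.96 (edgeR adjusted p = 0.748), Tpsb2 0.13 and Fcer1a 0.59, and Mcpt4 and Ms4a2 were under the filter on low counts. The highest Gzmb library was isotype control replicate 2. These markers summed there to more than in the other isotype control libraries and to less than in DTA-1 replicates 2 and 3. The part of mast cells or basophils in the granule gene levels was not tested.

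**Figure D4:**
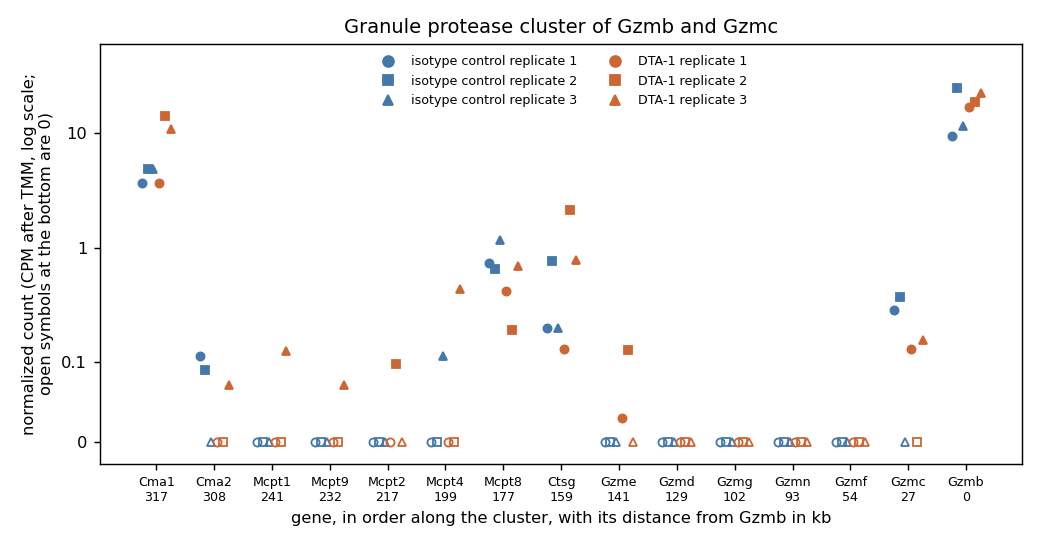
Normalized count (CPM after TMM, log scale) of the 15 genes of the granule protease cluster, evenly spaced in their order along the chromosome, with the distance in kb between the lower coordinates of the gene and of Gzmb under each name; blue is isotype control, orange DTA-1, symbols mark replicates and open symbols are 0. Gzmb at 9.5 to 24.6 and Cma1 at 3.67 to 14.2 bound a stretch in which every other gene stays under 2.2.

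Beyond the 7 genes, 80 further genes of the granule pathway, its regulators and other cytotoxic effectors were listed in 8 groups. Of these, 79 were in the table and 63 were tested. Of the 63, 40 had a fold change above 0 and 23 below, where 6901 and 7460 of all 14361 tested genes did so. The median log2 fold change of the 63 was 0.05 against -0.01 over all genes, and none of them was called with all 6 libraries by edgeR. An unadjusted p under 0.05 with a 1.5-fold change was found for 5 (Gzmm, Furin, Chst15, Bhlhe40 and Tnf), all higher with DTA-1, where the background was 1.09% of all tested genes. The groups did not overlap for 5 genes that were higher and 4 that were lower, of 63, where 5.26% and 6.03% of all tested genes did so. Without DTA-1 replicate 1, 5 of 64 tested list genes (7.81%) were called, all higher with DTA-1, against 0.583% of all tested genes called higher and 0.161% called lower. They were Furin, Chst15, Bhlhe40, Tnf and Lta, of which Bhlhe40 was listed as a transcription factor and Tnf and Lta as other cytotoxic effectors. The lists were chosen with earlier results of these data known, and this fit omits the library that stood apart from its group. The shares above are therefore no independent evidence about the pathway.

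The 6 genes listed for granzyme processing were all tested, and 5 had a mean level per length above that of Gzmb. Ctsc (cathepsin C), which removes the activation dipeptide of granzymes, had 80.4 ± 5.28 normalized counts under isotype control and 92.9 ± 20.8 under DTA-1 (SD, n = 3), a difference of 0.21 on the log2 scale (edgeR adjusted p = 0.771). Cst7 (cystatin F), an inhibitor of cathepsin C, had a fold change of 0.05 on the log2 scale and a level per length 6.31 to 16.4 times that of Gzmb in the same library. Cst3 (cystatin C) had the highest level of the 6 processing genes, 327 per kb. Ctsh (cathepsin H), which can also activate granzyme B, had 70.2, 68.9 and 62.5 normalized counts under isotype control and 57.8, 49.0 and 51.3 under DTA-1. Every DTA-1 library was below every isotype control library, with a log2 fold change of -0.35 (adjusted p = 0.627), and it was -0.42 without DTA-1 replicate 1 (adjusted p = 0.0546).

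Furin, a proprotein convertase of the secretory pathway, stood in the list for granzyme processing, but whether it acts on granzymes was not tested. It had 1112, 1347 and 1318 normalized counts under isotype control and 1268, 2645 and 2617 under DTA-1. DTA-1 replicates 2 and 3 lay above the isotype control libraries, and DTA-1 replicate 1 lay among them. The log2 fold change was 0.79 (SE 0.27, edgeR adjusted p = 0.655) with all libraries, and Furin rose by 1.06 on the log2 scale without DTA-1 replicate 1 (adjusted p = 0.000115).

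Serglycin's side chains are built by glycosaminoglycan-synthesizing enzymes, and all 17 listed were tested, 12 with a fold change above 0 and 5 below. Chst12 (37.9 per kb) and Chpf2 (27.6 per kb), a sulfotransferase and a chondroitin polymerizing factor, had the highest levels. Chst15, the sulfotransferase that makes the doubly sulfated chondroitin sulfate E, had 4.72, 6.27 and 6.58 normalized counts under isotype control and 10.5, 12.9 and 11.0 under DTA-1. The groups did not overlap, and DTA-1 replicate 1 lay with its group. The means were 5.86 ± 0.996 and 11.5 ± 1.26 (SD, n = 3), a log2 fold change of 0.97 (SE 0.19, 95% confidence interval 0.55 to 1.39). This had an adjusted p of 0.491 by edgeR and of 0.00645 by DESeq2's Wald test, which called no other gene of the 8 lists. Leaving out 1 library at a time gave 0.84 to 1.06, and edgeR called it only without DTA-1 replicate 1 (1.03, adjusted p = 0.0429). Ext1, which polymerizes heparan sulfate, had the next smallest p of this list (log2 fold change 0.26, adjusted p = 0.732).

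Among the other granzymes and related proteases, 5 of 8 were at 0 in all libraries (Gzmd, Gzmf, Gzmg, Gzmk and Gzmn). Gzmm (granzyme M) had 3, 13 and 9 counts under isotype control and 23, 24 and 14 under DTA-1. Every DTA-1 library was higher, the nearest libraries differing by 1 count, and the log2 fold change was 1.44 (SE 0.64, edgeR adjusted p = 0.681; 1.34 and 0.518 without DTA-1 replicate 1). Ctsg (cathepsin G), a protease of neutrophils and mast cells, had 7, 27 and 7 against 4, 67 and 25 counts (log2 fold change 1.38, adjusted p = 0.757; 1.90 and 0.288 without DTA-1 replicate 1). The neutrophil markers Elane, S100a8, S100a9 and Camp were at 0 in all 6 libraries, and the 6 listed summed to 0 to 1.05 normalized counts under isotype control and 0.162 to 0.961 under DTA-1.

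Granule membrane and biogenesis genes (6 of 10 tested above 0, 4 below) were led per length by Lamp1 at 131 and M6pr, a sorting receptor of lysosomal enzymes, at 91.7 per kb. Lamp1, the CD107a degranulation marker, was lower in every DTA-1 library (log2 fold change -0.11, edgeR adjusted p = 0.733), and Lyst, the regulator of granule size, had 0.32 (adjusted p = 0.772). Of the docking and exocytosis genes, 12 of 13 in the table were tested, 6 above and 6 below 0. Coro1a, an actin regulator, had 608 per kb and the vesicle fusion protein Vamp8 55.9. Rab27a and Unc13d (Munc13-4), which dock and prime granules, had log2 fold changes of 0.07 and -0.01, the latter 0.08 without DTA-1 replicate 1. Stx11, a syntaxin of granule release, had 0.38 (adjusted p = 0.632) and 0.53 without DTA-1 replicate 1, where its adjusted p was 0.014 but its change short of 1.5-fold. Its partner Stxbp2 (Munc18-2) had -0.13 (adjusted p = 0.702), with no overlap between the groups.

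Genes listed as inhibitors of granule proteases had fold changes close to 0. The list also held Spn (log2 fold change 0.03), a surface glycoprotein and not a protease inhibitor. Of 7 listed, 5 were tested, 3 above and 2 below 0 (Serpinb9 turned below 0 with scaling by total counts), with log2 fold changes from -0.07 for Serpinb1a (adjusted p = 0.887 by edgeR) to 0.15 for Serpinb6b (adjusted p = 0.897). Serpinb1a had the highest level of them, 154 per kb, followed by Serpinb6a with 30.6. Serpinb9, the inhibitor of granzyme B, had 39.1 ± 5.04 normalized counts under isotype control and 39.8 ± 7.28 under DTA-1 (SD, n = 3, log2 fold change 0.03, and -0.07 without DTA-1 replicate 1). Its level per length was 0.580 to 1.63 times that of Gzmb in the same library, and the lowest ratios were in isotype control replicate 2 and DTA-1 replicate 3, where Gzmb was highest.

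The T-box factors that drive the cytotoxic program in killer lymphocytes were nearly absent. Tbx21 (T-bet) had 0, 3 and 0 counts under isotype control and 15, 0 and 0 under DTA-1, and Eomes had 0, 2 and 4 against 0, 2 and 0. Runx3, whose family's letters were before 6 of the 7 promoter starts, had 57.1 ± 7.77 and 54.0 ± 1.31 normalized counts (SD, n = 3, log2 fold change -0.08, edgeR adjusted p = 0.902). Id2, which all innate lymphoid cells need, was the most abundant of the 8 factors, at 769 per kb. Zeb2 had no overlap between groups (log2 fold change 0.52, adjusted p = 0.627; 0.51 and 0.144 without DTA-1 replicate 1). Bhlhe40, a repressor induced by activation, had 237, 267 and 254 normalized counts under isotype control and 261, 456 and 436 under DTA-1. Its log2 fold change was 0.61 (adjusted p = 0.627), and it rose by 0.82 without DTA-1 replicate 1 (adjusted p = 0.000204).

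Other routes of killing, and Il2rb listed with them, were uneven. Fasl and Ifng were at 0 in all 6 libraries, and Tnfsf10 (TRAIL) had 16.9 and 14.2 normalized counts on average under isotype control and DTA-1. Tnf had 9.89, 6.67 and 7.34 under isotype control and 10.2, 19.8 and 16.2 under DTA-1, a difference of 0.95 on the log2 scale (edgeR adjusted p = 0.627), and it rose by 1.18 without DTA-1 replicate 1 (adjusted p = 0.0187). Lta (lymphotoxin alpha, 59.4 per kb) had 53.7, 38.1 and 44.3 against 41.0, 169 and 148, so that DTA-1 replicate 1 lay with the isotype control libraries. Its log2 fold change was 1.39 (adjusted p = 0.692), and it rose by 1.80 without that library (adjusted p = 0.000115). Il2rb, a receptor chain for the IL-2 in the medium, was higher in every DTA-1 library (log2 fold change 0.37, adjusted p = 0.627) but short of 1.5-fold, also without DTA-1 replicate 1 (0.51, adjusted p = 0.00129).

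**Figure D5:**
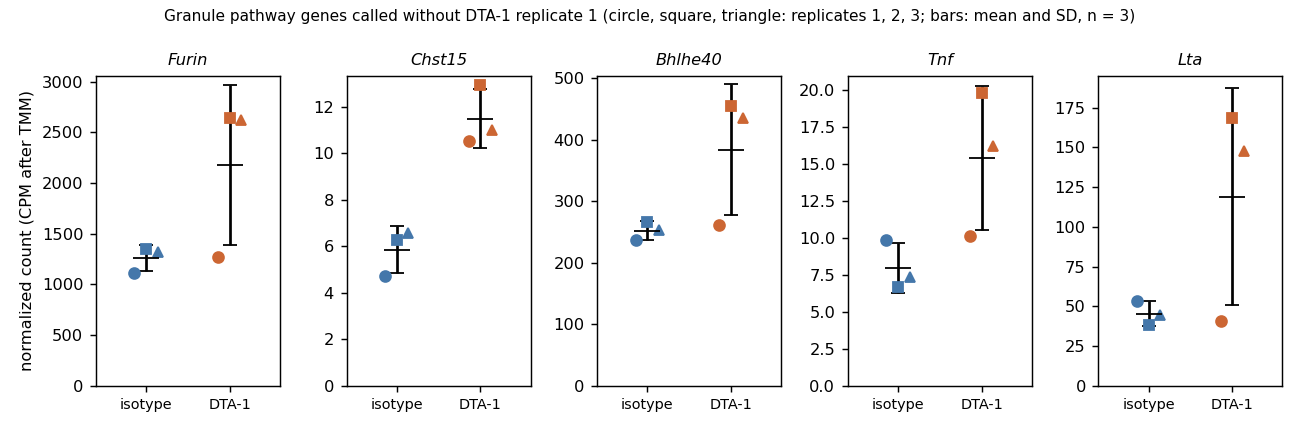
Normalized counts (CPM after TMM, linear scale from 0) of the 5 pathway list genes called without DTA-1 replicate 1. Each isotype control (blue) and DTA-1 (orange) library is shown, with the mean and SD of each group (n = 3). Circle, square and triangle are replicates 1, 2 and 3. DTA-1 replicate 1 lies close to the isotype control libraries for Furin, Bhlhe40, Tnf and Lta, and with its own group for Chst15.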

How the data were processed

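ILC2 RNA of 3 isotype control and 3 DTA-1 samples was sequenced on an Illumina NextSeq instrument. The authors deposited expected counts, estimated reads per gene without normalization, made with the Partek software; the submitters' processing notes also name bcl2fastq 2.17.1.14, STAR 2.5.3a and the build mm10. The annotation release, the treatment of multi-mapped reads and the use of strand are not given in the sources used here, so reads shared between near-identical genes may be split or lost. Of the values, 81.1% were whole within 0.001. No column was left out. Of 49721 symbols shared with GENCODE release 21, 48290 had the same start, and ends are given as in GENCODE's convention, 1 base before the deposited stop. Exon lengths are the union of GENCODE exons. Promoter sequences are RefSeq's.

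Counts were rounded and fitted in R 4.3.3 with edgeR 4.0.16 (filterByExpr, TMM, robust quasi-likelihood test, common dispersion 0.0256), without covariates. Alternatives were DESeq2 1.42.0 (size factors, Wald test), limma 3.58.1 (limma-trend), total counts, other filters on low counts, a replicate block, and each library left out. The length of the longest coding transcript was added after seeing the data. Tables and plots used Python 3.11.15, pandas 2.3.3, numpy 2.4.6 and matplotlib 3.10.9. In simulated data with a 2-fold change in 200 genes, 131 (65.5%) were recovered with 2 false calls. At a mean of at least 100 counts, 128 of 140 (91.4%) were recovered. Apart from the changed genes, all simulated libraries came from a common profile, with the dispersion typical of each gene's abundance. None stood apart as DTA-1 replicate 1 did, so these shares may exceed the recovery in the real data. Replicate numbers were not read as a pairing. Deviations of same-numbered samples were hardly correlated, but with 3 libraries per group this cannot exclude a shared origin. An exact permutation test of 3 against 3 cannot reach 0.05 and was not run.

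The genes and lists were chosen with earlier results of these data known. All 7 genes are named, and of each pathway list the 2 with the highest level per length, the 2 with the smallest p, those called in any fit that kept 5 or all libraries, and those at 0 throughout. Other genes named (Ctsc, Cst7, Rab27a, Unc13d, Serpinb9, Runx3, Tbx21, Eomes, Tnfsf10 and the chromosome 14 neighbours) were added for their role. Of the 80 pathway genes listed, Vamp7 was not matched to the table.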

Additional observations from a re-analysis of the deposited data

How the results depend on the processing

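None of the 7 granule genes was called under any alternative. The whole table had 0 calls with all libraries by edgeR, 25 by DESeq2's Wald test, 2 without a filter on low counts, 1 with the replicate block, 0 to 111 with 1 library left out (111 without DTA-1 replicate 1) and 337 at an unadjusted p. The pathway lists had 0, and 1 by DESeq2's Wald test, 0 to 5 with 1 library left out (5 without DTA-1 replicate 1) and 5 at an unadjusted p. Of the genes whose fold changes were recomputed under every alternative, 8 turned in direction, none of them called. Their log2 fold changes ranged, with 1 library left out, from -0.21 to 0.59 for Gzma, -0.89 to 0.85 for Prf1, -0.0079 to 0.16 for Ctsw, -0.11 to 0.016 for Serpinb1a, -0.011 to 0.25 for Serpinb6b, -0.075 to 0.17 for Serpinb9, -0.064 to 0.077 for Unc13d and -0.16 to 0.033 for Runx3. Gzma turned to -0.20 without isotype control replicate 1 and -0.21 without DTA-1 replicate 3, and Prf1 to -0.17 by limma-trend, -0.12 with the replicate block and -0.89 without DTA-1 replicate 3. Serpinb9 turned to -0.0098 with total counts. Of the 63 tested list genes, 6 changed sign without DTA-1 replicate 1 (Ctsl, Unc13d, Vamp2, Serpinb9, Xylt1 and B3galt6). The cause was not tested. Same-numbered samples had correlations of deviations of -0.00690 to 0.0152, under the limit of 0.1, so the numbers were not read as a pairing. At 2 to 49 counts per library in Prf1 and Nkg7, and fewer in Gzmc, a 2-fold rise lay within the intervals. The same held for Gzma, whose interval reached 1.07 on the log2 scale. That of Gzmb ended at 0.99, just short of a 2-fold rise, and at 1.19 without DTA-1 replicate 1.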
